A study of Mus musculus with 7 samples.

Results

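The RNA levels of 7 mouse genes were followed in ESC clones that had lost the distal super-enhancer (SE) of Sox2 on 1 or both alleles. The genes were the lysozyme gene Lyz2, the chemokine genes Ccl2, Ccl7, Cxcl1 and Cxcl12, the growth factor gene Csf1 and the adhesion gene Vcam1, 7 of 31498 annotated genes that were counted. They were picked by name because Lyz2, Ccl2, Csf1 and Vcam1 were almost absent from the wild type library and high in the biallelic deletion clone, so the comparison of those 2 libraries is a description of the choice and was not tested.

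The cells were F123, a hybrid mouse ESC line with 1 genome from Mus musculus castaneus (CAST) and 1 from S129/SvJae (129). The 4 RNA-seq libraries came from wild type cells with the SE on both alleles (CAST+/129+), a clone without it on the 129 allele (CAST+/129-), a clone without it on the CAST allele (CAST-/129+) and a clone without it on either allele (CAST-/129-). Each genotype was 1 library, and each deletion genotype was a single clone isolated after CRISPR transfection and puromycin selection. Transfected cells recovered on mouse embryonic fibroblast feeders and were then kept on gelatin-coated plates, with no feeder cells, for the last passages before RNA was taken. Promoter marks came from 3 ChIP-seq libraries of cells with an intact SE, H3K4me3 and H3K27ac in F123 and H3K27ac in J1, another mouse ESC line.

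Chemokines are small secreted proteins that attract leukocytes through G protein-coupled receptors, and CC and CXC chemokines differ in the spacing of their first cysteines. Csf1 is the secreted factor that macrophages need for survival and growth, lysozyme M from Lyz2 is an abundant macrophage enzyme that cleaves bacterial cell walls, and Vcam1 is a surface protein that binds the leukocyte integrin made by Itga4 and Itgb1. Stromal cells such as fibroblasts are a known source of Csf1, Ccl2, Ccl7, Cxcl1, Cxcl12 and Vcam1, whereas Lyz2 is best known as a gene of macrophages and granulocytes.

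Between 5831199 and 24848422 distinct alignments fell on genes, the fewest in CAST-/129- and the most in wild type. Sox2, the gene that the SE regulates, was at 175 FPKM (alignments per kilobase of exon, scaled to the alignments on genes of the library) in wild type, 82.0 in the CAST+/129- clone, 73.1 in CAST-/129+ cells and 7.40 in the CAST-/129- clone. All 13 ES cell markers listed reached 1 FPKM in all 4 libraries, and 5 of them fell at least 3-fold in CAST-/129- (Sox2, Klf4, Esrrb, Zfp42 and Nanog). Over all genes 0.511% fell that much there. Klf4 was the 1 marker of the list to do so in CAST+/129- and CAST-/129+ too, where 0.305% and 0.33% of all genes did. Intervals given here are exact 95% intervals of a count or of a ratio of counts. They cover counting error only and say nothing of the spread between clones of a genotype, for which there is no replicate.

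All 7 genes had their lowest FPKM in the wild type library and their highest in CAST-/129-, with both monoallelic clones between, when all exonic bases of a gene were counted. Over the longest protein-coding transcript alone, Cxcl12 left this order, at 0.279 FPKM in wild type and 0.271 in CAST+/129-. Over all genes, 16.8% were above wild type in all 3 deletion clones and 7.17% showed this full order. The choice of the genes fixed the ends of that order for Lyz2, Ccl2, Csf1 and Vcam1, so nothing is read from these shares. With a pseudo-value of 4 added to each FPKM and a 3-fold threshold, which is a log2 ratio of 1.58, 5 of the 7 genes were called higher in CAST-/129- (Lyz2, Ccl7, Ccl2, Csf1 and Vcam1), where 0.819% of all genes were. This count follows from the choice of the genes. The nearest genes on either side of the threshold were Vcam1, at a log2 ratio of 1.71, and Cxcl1, at 1.06. The monoallelic clones took no part in the choice but were set against the same wild type library. In CAST+/129- 2 of 7 genes passed (Lyz2 and Csf1), against 0.321% of all genes, and in CAST-/129+ 1 of 7 passed (Lyz2), against 0.473%. These monoallelic calls depended on the rule, since none remained with a pseudo-value of 10 or a 5-fold threshold, while 4 genes passed in CAST-/129+ with a pseudo-value of 1. None of the 7 was called lower in any clone, and none could be under this rule. Their wild type levels were at most 0.612 FPKM, which cannot fall 3-fold once 4 is added. The shares of all genes called lower were 0.305% in CAST+/129-, 0.33% in CAST-/129+ and 0.511% in CAST-/129-. In such bulk libraries more cells of one kind and more RNA per cell cannot be told apart.

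**Figure D1:**
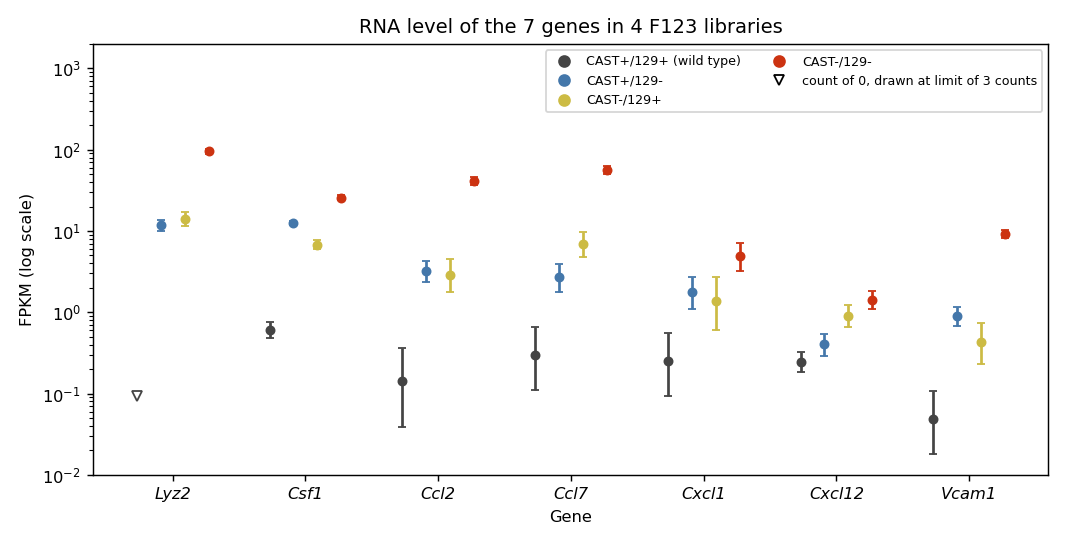
RNA level of each gene in FPKM on a log scale, with exact 95% Poisson intervals as bars, in the wild type library and the 3 deletion clones (1 library each). CAST-/129- is the highest point of every gene, from 1.43 FPKM for Cxcl12 to 95.5 for Lyz2, and wild type is the lowest, with Lyz2 drawn at the limit that a count of 0 allows.

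Lyz2 (ENSMUSG00000069516.6, mm9 chr10:116714390-116719377, minus strand) showed the widest change of the 7. It was at 0 FPKM in wild type (0 alignments, where 3 would give 0.092), 11.7 in the CAST+/129- clone (10.1 to 13.5), 14.1 in CAST-/129+ cells (11.6 to 16.9) and 95.5 in the CAST-/129- clone (88.7 to 103). Set against the 3-count limit, its level was at least 127-fold higher than wild type in CAST+/129-, at least 153-fold in CAST-/129+ and at least 1038-fold in CAST-/129-. The exact 95% lower limits of the same ratios were 102, 122 and 842. The monoallelic clones differed by less than counting error, with a CAST-/129+ to CAST+/129- ratio of 1.21 (0.946 to 1.53), while CAST-/129- was 8.18-fold above CAST+/129- (6.96 to 9.64) and 6.78-fold above CAST-/129+ (5.55 to 8.35). In CAST-/129- 4 of 31498 genes had a larger log2 ratio to wild type than Lyz2, which stood at 4.64. Lyz2 was chosen by this same contrast, so the rank is a description of the choice.

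The Lyz2 alignments had the structure of the spliced transcript. All 4 exons were covered in each deletion clone, at 125, 97.7, 82.5 and 88.8 FPKM from the first to the last exon in CAST-/129-. In each deletion clone all 3 introns had segments that ended and started exactly at their exon borders. Lyz1, the neighbouring lysozyme gene 5474 bp away, has a transcript 96.0% identical to that of Lyz2, and 195 of the 1264 windows of 50 bases in the Lyz2 transcript (15.4%) also occur in Lyz1. Lyz1 was at 0 FPKM in wild type, 1.78 in the CAST+/129- clone, 0.914 in CAST-/129+ cells and 13.3 in the CAST-/129- clone. Of its 98 alignments in CAST-/129-, 80 lay in the last exon, which holds 854 of its 1264 exonic bases, and 0 in the first. The exons were at 0, 8.31, 21.7 and 16.1 FPKM there, and 2 of the 3 introns had segments at both borders. How reads were divided between the pair is uncertain, and the Lyz1 value should be read as such. None of the other 6 genes shared a window of 50 bases with a protein-coding transcript of another gene, and other sequences were not searched. Yeats4 and Cpsf6, the expressed genes flanking the lysozyme pair, were between 45.8 and 53.7 FPKM and between 33.0 and 38.6 FPKM over the 4 libraries.

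Csf1 (ENSMUSG00000014599.4, chr3:107543966-107563387, minus strand) was measured with the most alignments of the 7 genes. Its level was 0.612 FPKM in wild type (0.485 to 0.761), 12.5 in the CAST+/129- clone (11.7 to 13.4), 6.81 in CAST-/129+ cells (5.93 to 7.77) and 25.7 in the CAST-/129- clone (24.0 to 27.6). Wild type was therefore low but not empty for Csf1, with 80 alignments, and the intervals of the 4 libraries did not overlap. The ratios to wild type were 20.4 in the CAST+/129- clone (16.2 to 26.0), 11.1 in CAST-/129+ cells (8.57 to 14.6) and 42.1 in the CAST-/129- clone (33.4 to 53.6). On the scale with the pseudo-value these were log2 ratios of 1.84, 1.23 and 2.69, so the clone with the CAST deletion did not pass 3-fold. It did with a pseudo-value of 1 (2.28), and CAST+/129- did not when reads were counted before collapsing (1.51). The step from a monoallelic clone to CAST-/129- was 2.06-fold over CAST+/129- (1.87 to 2.28) and 3.78-fold over CAST-/129+ (3.25 to 4.42). Csf1 lies on the same chromosome as Sox2, 73.0 Mb away, and Vcam1 lies 81.3 Mb away. From allele-specific reads of these libraries, the paper reports no direct effect of the deletion on other genes of this chromosome. Alleles were not separated here, so this was not tested.

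Ccl2 (ENSMUSG00000035385.5, chr11:81849073-81850955, plus strand) and Ccl7 (ENSMUSG00000035373.2, chr11:81859214-81861027, plus strand) encode CC chemokines that attract monocytes through the receptor Ccr2, and the genes lie 8258 bp apart. Ccl2 was at 0.141 FPKM in wild type (4 alignments), 3.24 in the CAST+/129- clone (2.38 to 4.33), 2.90 in CAST-/129+ cells (1.77 to 4.48) and 41.4 in the CAST-/129- clone (36.7 to 46.6). Ccl7 was at 0.301 FPKM in wild type (6 alignments), 2.71 in the CAST+/129- clone (1.78 to 3.94), 7.01 in CAST-/129+ cells (4.85 to 9.79) and 56.5 in the CAST-/129- clone (49.9 to 63.8). Both genes passed 3-fold in CAST-/129-, at log2 ratios of 3.46 and 3.81 with the pseudo-value, and in neither monoallelic clone, although their plain ratios to wild type in the monoallelic clones had intervals above 1. For Ccl2 these were 22.9 (8.37 to 87.7) in CAST+/129- and 20.5 (6.87 to 82.5) in CAST-/129+. For Ccl7 they were 8.97 (3.63 to 26.6) in CAST+/129- and 23.2 (9.64 to 67.7) in CAST-/129+. With a pseudo-value of 1 in place of 4, Ccl2 passed 3-fold in both monoallelic clones (log2 ratios of 1.89 and 1.77) and Ccl7 in CAST-/129+ (2.62). Of the same cluster on chromosome 11, Ccl8, which encodes a further CC chemokine, was at 0.709 FPKM in wild type, 0 in the CAST+/129- clone, 1.29 in CAST-/129+ cells and 24.5 in the CAST-/129- clone, a log2 ratio of 2.6 in the last. Ccl11 was at 5.07 FPKM in CAST-/129- from 0 in wild type and Ccl12 at 1.28 from 0, and neither passed 3-fold with the pseudo-value.

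Cxcl1 (ENSMUSG00000029380.10, chr5:91320267-91322141, plus strand) encodes a neutrophil-attracting chemokine and was counted from few alignments. It was at 0.253 FPKM in wild type (6 alignments), 1.77 in the CAST+/129- clone (1.09 to 2.70), 1.39 in CAST-/129+ cells (0.598 to 2.73) and 4.86 in the CAST-/129- clone (3.20 to 7.07). The plain ratio to wild type in CAST-/129- was 19.2 (7.76 to 56.8), whereas the log2 ratio with the pseudo-value was 1.06, because a pseudo-value of 4 FPKM exceeds most of the levels compared. In the surrounding CXC cluster on chromosome 5, Cxcl5 was at 6.42 FPKM and Pf4 at 4.68 in CAST-/129-, from 0.122 and 0 in wild type, and neither passed 3-fold.

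Cxcl12 (ENSMUSG00000061353.5, chr6:117118553-117131385, plus strand) encodes the ligand of Cxcr4 and moved least. It was at 0.246 FPKM in wild type (0.183 to 0.324), 0.402 in the CAST+/129- clone (0.289 to 0.546), 0.908 in CAST-/129+ cells (0.663 to 1.22) and 1.43 in the CAST-/129- clone (1.11 to 1.81). The highest of these log2 ratios with the pseudo-value was 0.35, in CAST-/129-, and 2860 genes had a larger one. Its plain ratio to wild type was 1.64 in CAST+/129- with an interval that came close to 1 (1.06 to 2.52), and 5.80 in CAST-/129- (3.96 to 8.52).

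Vcam1 (ENSMUSG00000027962.9, chr3:115812938-115832606, minus strand) was at 0.0491 FPKM in wild type (6 alignments), 0.898 in the CAST+/129- clone (0.676 to 1.17), 0.436 in CAST-/129+ cells (0.232 to 0.746) and 9.21 in the CAST-/129- clone (8.13 to 10.4). It stayed below 1 FPKM in both monoallelic clones and was the called gene with the lowest level in CAST-/129-, where its call was lost when reads were counted before collapsing (log2 ratio of 1.47). The step from a monoallelic clone to CAST-/129- was 10.3-fold over CAST+/129- (7.65 to 14.0) and 21.1-fold over CAST-/129+ (12.1 to 40.2).

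Within CAST-/129- the genes ranked Lyz2, Ccl7, Ccl2, Csf1, Vcam1, Cxcl1 and Cxcl12 in FPKM, and the counting intervals of neighbours in this order did not overlap. The order of the CC chemokines depended on the gene model. Over the exons of the longest protein-coding transcript instead of all exonic bases, Ccl2 was at 58.0 FPKM (51.4 to 65.3) and Ccl7 at 56.5 (49.9 to 63.8), which did not differ beyond counting error. Vcam1 came to 13.3 FPKM and Csf1 to 32.2 on that measure.

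**Figure D2:**
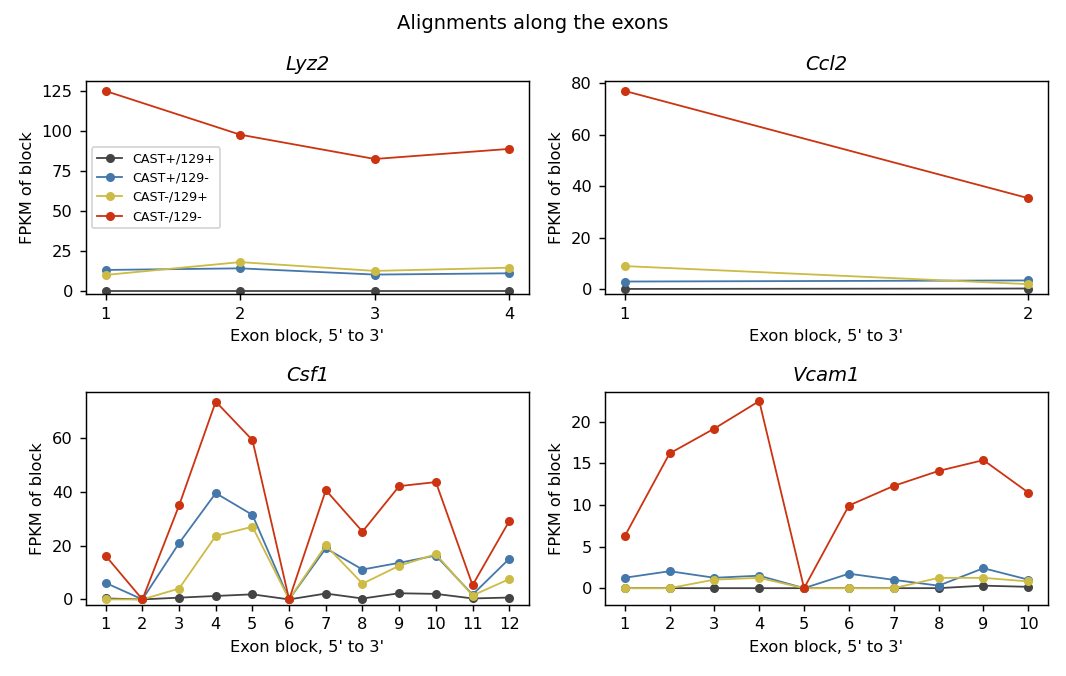
FPKM of each exon block (merged exons of all transcripts) from the 5′ to the 3′ end of Lyz2, Ccl2, Csf1 and Vcam1 in the 4 RNA-seq libraries. CAST-/129- is highest in every block with alignments, for example 125 FPKM in the first exon of Lyz2, and blocks 2 and 6 of Csf1 and block 5 of Vcam1 hold none in any library.

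The alignments ran along the exons of the other called genes as well. In CAST-/129- both introns of Ccl2 and of Ccl7 had segments at both exon borders. So did 8 of 9 annotated introns of Vcam1 and 9 of 13 of Csf1. Segments at the borders of an intron were not matched as parts of the same read. Both borders had segments at 1 of the 9 Vcam1 introns and 5 of the 13 Csf1 introns in wild type. These counts were 5 and 10 in CAST+/129- and 0 and 7 in CAST-/129+. Unspliced RNA could not be read, because only 1.88% to 2.26% of alignments in the files fell in introns of protein-coding genes, against 71.7% to 78.4% in exons. The exon blocks without alignments count towards the exonic length and so lower the FPKM of Csf1 and Vcam1.

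Set against each other, the monoallelic clones did not order the 7 genes alike. The CAST-/129+ to CAST+/129- ratio was 0.545 for Csf1 (0.467 to 0.634) and 0.486 for Vcam1 (0.244 to 0.901), both higher in the clone with the 129 deletion. It was 2.59 for Ccl7 (1.52 to 4.46) and 2.26 for Cxcl12 (1.45 to 3.53), both higher in the clone with the CAST deletion. For Ccl2 it was 0.894 (0.501 to 1.54) and for Cxcl1 0.783 (0.300 to 1.84), and these intervals, like that of Lyz2, hold 1. Since shifted partner alignments were counted separately the intervals are too narrow, and the Vcam1 difference, on 13 and 55 alignments with an upper limit of 0.901, is the least certain of the 4. Sox2 in the same pair was at 82.0 and 73.1 FPKM. Each side of this comparison is 1 clone, so clone and deleted allele cannot be told apart.

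**Figure D3:**
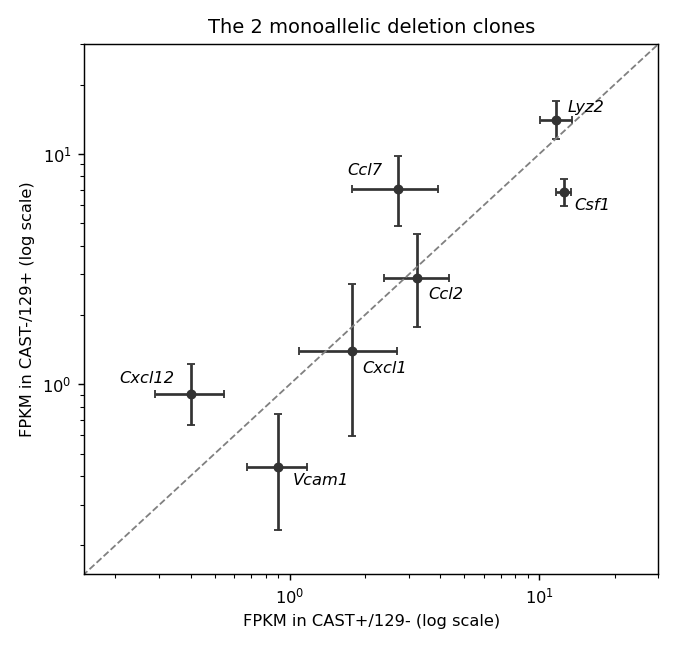
FPKM of the 7 genes in CAST-/129+ (vertical, log scale) against CAST+/129- (horizontal, log scale), 1 library each, with exact 95% Poisson intervals. The dashed line marks equal levels, and Ccl7 and Cxcl12 lie above it and Csf1 and Vcam1 below it with ratio intervals that leave out 1.

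The promoters of the 7 genes differed in base composition, a feature that the choice did not use. In the 250 bases before the annotated gene start (mm9), Cxcl12 held 14 CG dinucleotides, Cxcl1 10 and Csf1 10, whereas Ccl2 held 3, Lyz2 1, Ccl7 1 and Vcam1 0. The median over 21976 promoters of the same length was 9. The sequences of 5 of them are given 5′ to 3′ on the gene's strand to show this difference, with each CG dinucleotide in capitals. They are Csf1 (chr3:107563388-107563637, minus strand), Cxcl1 (chr5:91320017-91320266, plus strand), Ccl2 (chr11:81848823-81849072, plus strand), Lyz2 (chr10:116719378-116719627, minus strand) and Vcam1 (chr3:115832607-115832856, minus strand).
Csf1: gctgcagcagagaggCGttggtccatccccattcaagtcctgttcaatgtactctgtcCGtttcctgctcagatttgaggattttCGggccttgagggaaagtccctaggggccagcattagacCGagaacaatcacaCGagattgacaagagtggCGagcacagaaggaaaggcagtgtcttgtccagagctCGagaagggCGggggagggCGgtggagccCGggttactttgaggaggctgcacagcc
Cxcl1: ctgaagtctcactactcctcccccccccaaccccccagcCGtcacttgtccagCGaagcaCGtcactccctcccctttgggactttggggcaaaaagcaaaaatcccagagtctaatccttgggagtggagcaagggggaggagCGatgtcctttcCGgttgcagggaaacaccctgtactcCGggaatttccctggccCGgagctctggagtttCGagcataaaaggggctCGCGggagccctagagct
Ccl2: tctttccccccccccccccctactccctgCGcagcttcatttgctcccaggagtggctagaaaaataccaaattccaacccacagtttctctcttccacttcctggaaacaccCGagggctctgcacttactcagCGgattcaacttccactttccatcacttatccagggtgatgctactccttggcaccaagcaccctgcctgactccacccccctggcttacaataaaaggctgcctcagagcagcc
Lyz2: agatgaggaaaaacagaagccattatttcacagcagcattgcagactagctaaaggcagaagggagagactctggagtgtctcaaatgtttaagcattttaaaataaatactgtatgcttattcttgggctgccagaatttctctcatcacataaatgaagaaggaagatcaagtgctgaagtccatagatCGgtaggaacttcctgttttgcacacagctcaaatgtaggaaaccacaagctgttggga
Vcam1: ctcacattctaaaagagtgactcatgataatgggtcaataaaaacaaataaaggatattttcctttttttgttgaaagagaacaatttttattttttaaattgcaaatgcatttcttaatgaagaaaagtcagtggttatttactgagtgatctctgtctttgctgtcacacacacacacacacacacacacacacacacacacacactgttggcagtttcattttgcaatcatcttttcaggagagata

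The same windows were searched on both strands for 4 sets of letters. The NF-kB consensus was found in Cxcl1, at bases -67 to -58 before the start (GGGAATTTCC) and overlapping it on the other strand at -66 to -57, and in Csf1 at -154 to -145, on the strand opposite to the gene (the gene's strand reads GGAAAGTCCC there), while 7.77% of all promoters held it. TGANTCA, the letters bound by AP-1, stood in Ccl7 at -69 to -63 and in Vcam1 at -233 to -227, against 5.99% of all promoters. TATAAA stood at -30 to -25 in Ccl7, against 12.2%. CATTGT, a Sox factor motif, was in none of the 7 windows, against 9.07%. A match is a description of the letters and not of binding, and a motif without a match is only missing from these 250 bases.

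In wild type F123 cells, H3K4me3, a mark of active and poised promoters, differed among the 7 genes. Counted within 2 kb of the start and divided by the genome mean of the library, it was 4.74-fold at Csf1 (3.53 to 6.23) and 4.74-fold at Cxcl12 (3.53 to 6.23), with 51 alignments at each. Within 1 kb of the start it was 7.99-fold at Csf1. It was 2.51-fold at Cxcl1 (1.65 to 3.65, and 4.09-fold within 1 kb) and 1.67-fold at Lyz2 (0.991 to 2.64, and 2.23-fold within 1 kb). At Vcam1 it was 1.02-fold (0.510 to 1.83), at Ccl2 0.836-fold (0.382 to 1.59) and at Ccl7 0.650-fold (0.262 to 1.34), all with intervals that hold the genome mean. The median of 21964 protein-coding promoters was 4.18-fold. The interval of Csf1, a gene with 0.612 FPKM in wild type cells, held that median.

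The profile around the starts showed where the mark sat. In bins of 500 bp the highest value at Csf1 was 17.8-fold (24 alignments) and at Cxcl12 9.67-fold (13 alignments), both in the bin that begins at the gene start, and at Cxcl1 it was 8.18-fold (11 alignments) in the bin just before it. No bin within 10 kb of Ccl2, Ccl7 or Vcam1 reached 5-fold. At Lyz2 the highest bin, 7.44-fold (10 alignments), began 6500 bp after the start, beyond the end of the gene, and the bin that begins 500 bp after the start held 5.2-fold (7 alignments).

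H3K27ac, a mark of active promoters and enhancers, was below 2-fold within 2 kb of all 7 starts in both ESC lines. Within 1 kb it was 2.51-fold at Ccl2 in F123, on very few alignments. In the 2 kb window it was between 0.419-fold and 1.67-fold in F123, on 1 to 4 alignments per promoter, and between 0.512-fold at Ccl2 and 1.79-fold at Cxcl12 in J1, on 6 to 21 alignments. The corresponding medians of all protein-coding promoters were 1.67-fold (F123) and 1.88-fold (J1). All 7 intervals in F123 held that median, and so did those of Cxcl12, Ccl7 and Cxcl1 in J1. The F123 library had 1575763 distinct alignments, so a promoter at the genome mean held 2.39 of them and differences among the 7 genes were not detectable at this depth. ChIP-seq of deletion clones was not analysed here, so the marks describe the genes only with the SE in place.

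**Figure D4:**
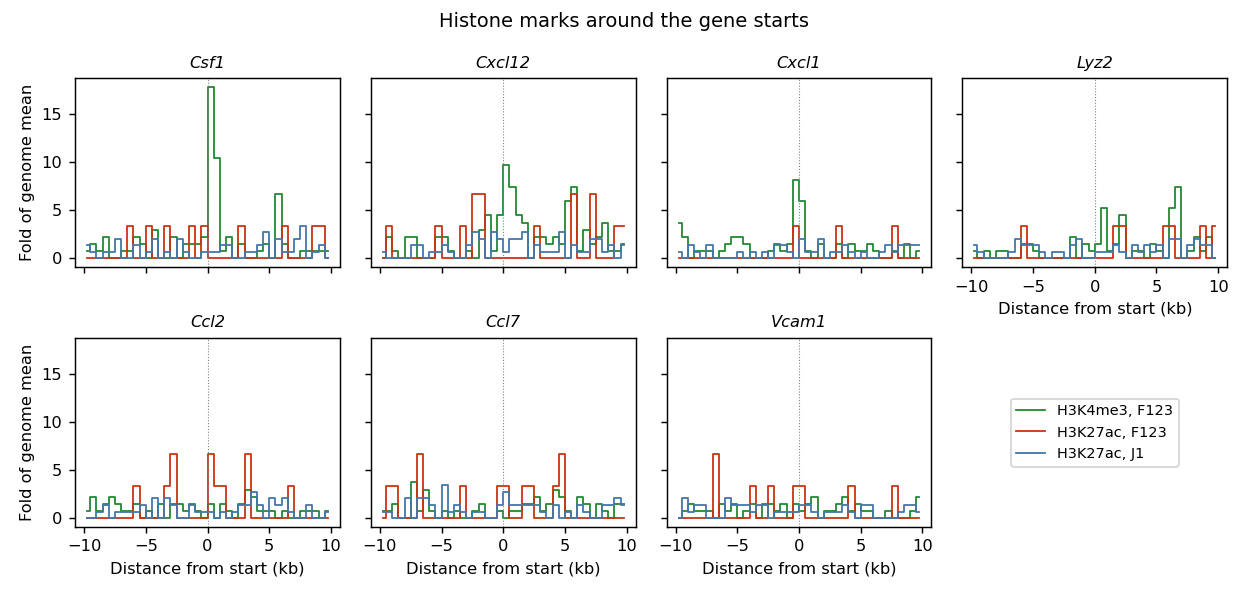
H3K4me3 in F123 and H3K27ac in F123 and J1 cells, as alignments per 500 bp bin over the genome mean of each library (vertical), against the distance from the gene start in the direction of transcription in kb (horizontal), 1 library per line. H3K4me3 peaks at the start of Csf1 at 17.8-fold and of Cxcl12 at 9.67-fold, while single H3K27ac alignments in F123 appear as steps.

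The receptors of these ligands were read in the same libraries, and none passed 3-fold with the pseudo-value in any clone. Csf1r, the receptor of Csf1, was at 0.0077 FPKM in wild type (1 alignment), 1.29 in the CAST+/129- clone (84 alignments), 3.09 in CAST-/129+ cells (98 alignments) and 4.30 in the CAST-/129- clone (131 alignments), with log2 ratios of 0.40, 0.82 and 1.05 in the deletion clones. It was thus seen in all 3 deletion clones and nearly absent from wild type. Ccr2, the receptor of Ccl2 and Ccl7, had 0, 1, 2 and 0 alignments in wild type, CAST+/129-, CAST-/129+ and CAST-/129-, Ccr1 had 0, 8, 4 and 0 and Ccr3 had 2, 2, 0 and 0. Cxcr1 had none in any library, and Cxcr2, the receptor of Cxcl1, was between 0.543 and 1.36 FPKM.

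For Cxcl12, the receptor Cxcr4 was at 3.58 FPKM in wild type (3.05 to 4.18), 0.444 in the CAST+/129- clone (0.213 to 0.816), 10.9 in CAST-/129+ cells (9.0 to 13.0) and 7.78 in the CAST-/129- clone (6.19 to 9.65), so it was below wild type in one monoallelic clone and above it in the other. Cxcr7, its second receptor, was at 0.252, 2.73, 5.08 and 2.20 FPKM in the same order. Of the integrin chains that bind Vcam1, Itga4 was at 0.760, 0.149, 0.0945 and 1.91 FPKM and Itgb1, which is widely expressed, at 72.5, 107, 83.7 and 137. Itgb1 and Csf1r had their lowest level in wild type and their highest in CAST-/129-, the order of the 7 genes.

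Relatives of the 7 genes were counted in lists that include them, by the 3-fold rule, which with a pseudo-value of 4 holds back genes of low level. Of 35 chemokine genes counted, which include Cx3cl1 and Xcl1 beside the CC and CXC genes, 3 passed 3-fold upwards in CAST-/129- (Ccl2, Ccl7 and Ccl8), none in either monoallelic clone and none downwards. Without regard to size, 22 of the 35 were above wild type and 4 below it in CAST-/129-. In wild type 16 of the 35 were at 0 and so could not lie below it. Some of those above rest on few alignments, such as 4 for Ccl12. Over all genes 30.9% were above wild type in that clone, and 4 of the 22 belong to the 7 genes. Cxcl5 stayed below the threshold although its plain ratio to wild type was 52.8 (21.5 to 168). Outside the 7 genes, 1 of 31 chemokine genes passed upwards in CAST-/129- (Ccl8), where 0.819% of all genes did, and these 31 had a median log2 ratio of 0.10 in CAST-/129-, beside 0 over all genes. None of the 22 chemokine receptor genes passed in any clone. In the list of colony-stimulating factors, their receptors and lysozymes, 3 of 13 passed in CAST-/129- (Lyz2, Csf1 and Lyz1), 2 in CAST+/129- (Lyz2 and Csf1) and 1 in CAST-/129+ (Lyz2). Over all genes the shares were 0.819% in CAST-/129-, 0.321% in CAST+/129- and 0.473% in CAST-/129+. Without the 7 genes, 1 of 11 in this list passed in CAST-/129-, the uncertain Lyz1. Il34, the other ligand of Csf1r, was at 2.28 FPKM in CAST-/129- and 0.678 in wild type, and Csf2 and Csf3 had no alignment in any library. Vcam1 was the 1 adhesion gene of 14 to pass, in CAST-/129-, where 0.819% of all genes did, so 0 of the 13 others did. Icam1 was at 36.5 FPKM in wild type and 20.9 in CAST-/129-.

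Genes of NF-kB and inflammatory signalling showed 1 call upwards of 27 in CAST-/129-, where 0.819% of all genes were called, and 1 of 27 in CAST+/129-, against 0.321%. Both were Ptgs2, the inducible prostaglandin synthase. Ptgs2 was at 0.466 FPKM in wild type, 20.1 in the CAST+/129- clone, 2.87 in CAST-/129+ cells and 10.8 in the CAST-/129- clone, so unlike the 7 genes it was highest in a monoallelic clone. The median log2 ratio of the 27 genes was 0.07 in CAST-/129-, 0.03 in CAST+/129- and 0 in CAST-/129+.

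Some markers of other cell types rose with these genes while others fell, and their part in the results was not tested. The clones had been grown on fibroblast feeders. The paper split reads of these libraries at CAST and 129 SNPs. No such split was made here, and RNA of carried-over feeder cells was not told apart from RNA of the ESCs. Of 28 fibroblast markers, 17 rose and 1 (Pdgfra) fell at least 3-fold in CAST-/129-, 7 rose in CAST+/129- and 5 in CAST-/129+, with Pdgfra falling in both. Over all genes 0.819% rose and 0.511% fell in CAST-/129-, 0.321% and 0.305% in CAST+/129-, and 0.473% and 0.33% in CAST-/129+. Without regard to size, 21, 22 and 27 of the 28 were above wild type in CAST+/129-, CAST-/129+ and CAST-/129-, and 7, 6 and 1 below it. Of all genes 33.5%, 33.5% and 30.9% were above it. The summed level of the fibroblast list was 469.8 FPKM in wild type, 636 in the CAST+/129- clone, 713 in CAST-/129+ cells and 1866 in the CAST-/129- clone, and its median log2 ratio in the CAST-/129- clone was 2.01. Of the wild type sum, Fn1 gave 191 FPKM, Sparc 116 and Vim 83.9. Col1a1, the main fibrillar collagen chain, was at 3.48, 39.0, 38.9 and 174 FPKM, Acta2, smooth muscle actin, at 3.57, 73.7, 82.8 and 181, and Tagln at 4.09, 70.0, 95.3 and 164. Thy1, at 11.4, 5.69, 6.28 and 27.7 FPKM, and Fn1, at 191, 110, 104 and 210, were below wild type in both monoallelic clones. Lum was the 1 marker of the list at 0 in wild type, and it had 8.60 FPKM in CAST-/129-. Like the 7 genes, the fibroblast markers were not all ordered alike in the monoallelic clones, with Lox at 18.9 FPKM in CAST+/129- and 8.36 in CAST-/129+ and Fbln1 at 5.15 and 9.48. In wild type Lox was at 1.24 FPKM, and Fbln1 was at 10.2, above both of its monoallelic values.

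Of 20 macrophage and leukocyte markers, 3 rose in CAST-/129- (Lyz1, Tyrobp and Emr1), 1 (Laptm5) fell there and in both monoallelic clones, and none passed 3-fold upwards with the pseudo-value in the monoallelic clones. Over all genes 0.819% rose and 0.511% fell in CAST-/129-, 0.321% and 0.305% in CAST+/129-, and 0.473% and 0.33% in CAST-/129+. The Lyz1 reads are uncertain beside Lyz2. Tyrobp, at a log2 ratio of 1.65 on 28 alignments, and Emr1, at 1.62, lay just above the threshold of 1.58. Above wild type without regard to size were 15 of the 20 in CAST+/129-, 14 in CAST-/129+ and 14 in CAST-/129-, where 33.5%, 33.5% and 30.9% of all genes were. At 1 FPKM or more there were 4 markers in wild type, 6 in each monoallelic clone and 16 in CAST-/129-. The defining marker Ptprc was at 0 FPKM in wild type, 0.0552 in the CAST+/129- clone, 0.284 in CAST-/129+ cells and 0.944 in the CAST-/129- clone, and Emr1, which encodes the macrophage protein F4/80, was at 0.0620, 0.866, 0.814 and 8.51. In wild type 8 of the 20 markers were at 0, among them Ptprc, Tyrobp, Aif1 and the C1q genes, and in CAST-/129- Fcgr1 and Cx3cr1 were. Markers at 0 in wild type could not lie below it. The summed level of the list was 52.5 FPKM in wild type, 19.3 in the CAST+/129- clone, 25.0 in CAST-/129+ cells and 86.0 in the CAST-/129- clone. Laptm5 alone gave 35.1 FPKM of the wild type sum and Cd68 11.7. Without these 2, which were left out after their values were seen, the sums were 5.70, 12.2, 14.5 and 68.3. The uncertain Lyz1 gave 13.3 FPKM of both CAST-/129- sums. None of the 8 endothelial markers passed 3-fold upwards with the pseudo-value in any clone, and Pecam1 fell in CAST-/129-. Of these 8, 3, 3 and 2 were above wild type in CAST+/129-, CAST-/129+ and CAST-/129-, among them Kdr, at 0.0608 FPKM in wild type and 0.408, 0.975 and 0.353 in the clones.

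**Figure D5:**
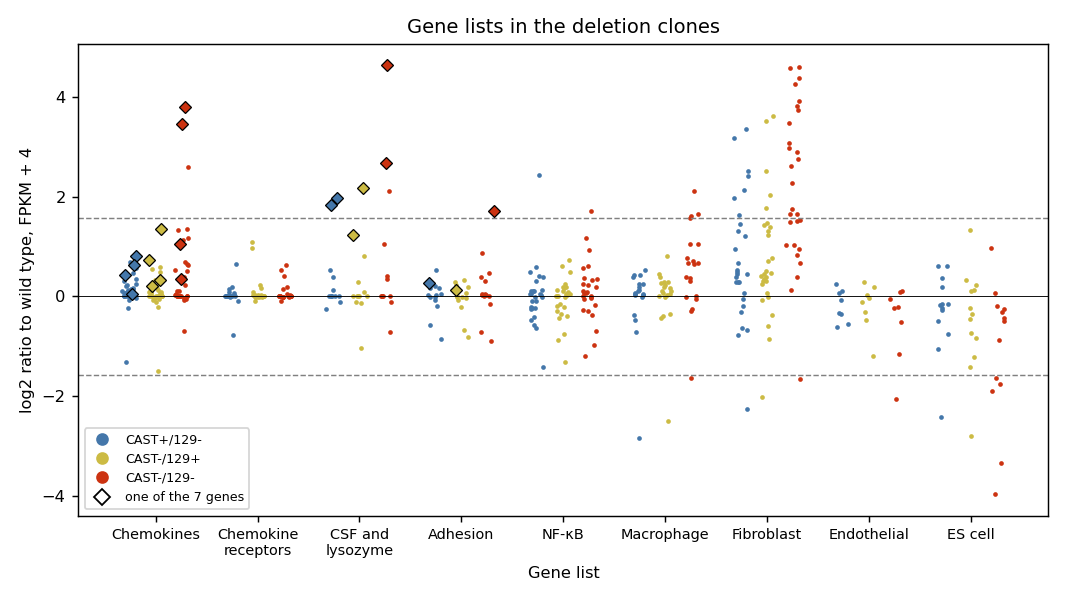
Log2 ratio to wild type of FPKM plus 4 (vertical) for every gene of 9 lists (horizontal) in the 3 deletion clones, 1 point per gene and clone, with the 7 genes as diamonds and dashed lines at 3-fold. In CAST-/129- 17 fibroblast markers and 3 macrophage markers, 1 of them the uncertain Lyz1, lie above the upper line with 5 of the 7 genes. Most chemokine and all chemokine receptor genes lie between the lines.

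The genes with the most similar levels to each called gene were named by the Euclidean distance of log2(FPKM + 4) over the 4 libraries. For Lyz2 they were Timp2 (0.74), Fbln2 (0.85) and Igfbp7 (0.85), and for Ccl2 they were Mmp3 (0.43), Efemp1 (0.45) and Grem1 (0.56). For Ccl7 they were T (0.70), Cav1 (0.76) and Col3a1 (0.77), and for Csf1 they were Prss23 (0.29), Timp3 (0.50) and Loxl2 (0.50). Vcam1 had the closest neighbours, Sod3 (0.09), Emr1 (0.14) and Lum (0.25). Mmp3, a secreted protease, was at 0.0448, 1.83, 2.48 and 33.5 FPKM in wild type, CAST+/129-, CAST-/129+ and CAST-/129-, beside 0.141, 3.24, 2.90 and 41.4 for Ccl2. With 4 added, levels well below 4 FPKM hardly count, so the neighbours of Vcam1 rest mainly on its level in CAST-/129-. The likeness rests on 4 libraries that differ in depth and is given as a description.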

How the data were processed

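RNA-seq of 4 F123 genotypes and ChIP-seq of 3 libraries were analysed, 1 library each and 7 in all. The deposited files hold counts: per the labels and the study's methods the authors mapped RNA-seq reads to mm9 with Novoalign and USeq and ChIP-seq reads with Bowtie (versions not given in the sources used here), and each line is an aligned segment with the whole-number count of identical reads collapsed into it. No input library was used here.

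Distinct alignments were assigned by midpoint, on the transcript strand (opposite to the line's strand), to exonic bases of 1 gene in GENCODE M1, with no genes under 200 such bases, which left 31498 genes. FPKM used alignments on genes as library size. Calls required a 3-fold ratio of FPKM + 4, the rule of the study's methods. The study computed its own FPKM, so the calls here are not its calls. Here 258 genes were called higher and 161 lower in CAST-/129-, more than the paper lists in either direction. There were no tests between genotypes. Partner alignments of the same length shifted by 2 bases, which made up 35.2% to 51.9% of those of the 7 genes in CAST-/129-, were counted separately, so intervals are too narrow. ChIP-seq was counted as 5′ ends of distinct alignments.

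The 7 genes, the lists and the rule for other named genes (Sox2, receptors, Lyz1, Ccl12, list genes past 3-fold, 3 nearest genes per called gene) were chosen with earlier results of these data known. Genes named outside that rule (neighbours such as Ccl11, Cxcl5, Pf4, Yeats4 and Cpsf6, the list genes Il34, Icam1, Ptprc, Cd68, Csf2, Csf3, Fcgr1, Cx3cr1, Kdr and Aif1, and further fibroblast genes) were picked with their values in view. The study's own list of genes raised in CAST-/129- was made on these libraries and holds Lyz2, Ccl2, Ccl7 and Csf1, so it is not independent evidence.

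Sequences were read from the NCBIM37 (mm9) genome. Simulated independent counts were used only to check how calls and intervals were computed. They held no spread between clones and no shifted partner alignments, so they say nothing of either. The software was samtools 1.23.1, scipy 1.17.1, pandas 2.3.3 and numpy 2.4.6 under Python 3.11.15. For RNA-seq 12 alternative settings were tried, and for ChIP-seq the window, the start site, collapsing and the chromosome mean.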

Additional observations from a re-analysis of the deposited data

Results flagged for a closer look

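Cxcr4, the receptor of Cxcl12, lay on opposite sides of wild type in the monoallelic clones, with a log2 ratio to wild type of -0.77 in CAST+/129- and 0.97 in CAST-/129+ on the scale of FPKM plus 4. Neither ratio passed 3-fold, and with 1 library per clone the difference between the clones was not tested.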

How the results depend on the processing

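All 7 genes had positive log2 ratios in every clone under each of the 12 RNA-seq settings in which they were counted. Settings that change only the pseudo-value, the threshold or the set of genes kept cannot change this sign. The number called in CAST-/129- stayed within 1.5 times of 5. In CAST+/129-, where 2 were called, the count was 0 with a pseudo-value of 10 or a 5-fold threshold and 1 when reads were not collapsed. In CAST-/129+, where 1 was called, it was 4 with a pseudo-value of 1, 0 with a pseudo-value of 10, 3 with a 2-fold threshold and 0 with a 5-fold threshold. Vcam1 in CAST-/129- was under 3-fold with a pseudo-value of 10 or uncollapsed reads (log2 ratio 1.47 in the latter), and under the 5-fold threshold. Within 1 kb of the start, in place of 2 kb, H3K4me3 was 7.99-fold at Csf1 and 4.09-fold at Cxcl1. The longest-transcript levels were added after the data were seen, and there Cxcl12 was 0.279 FPKM in wild type and 0.271 in CAST+/129-. No paired analysis was possible because each genotype had 1 library and the labels carry no replicate numbers. Depth limits Ccl2, Ccl7, Cxcl1 and Vcam1 in wild type, which rest on 4 to 6 alignments each.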
